A study of Mus musculus with 24 samples.

Results

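The subject here was the autosomal distribution of H3K27me3, trimethylation of lysine 27 on histone H3, in the XY and XX progenitor cells of the mouse gonad at E10.5. The members were the regions obtained by joining overlapping H3K27me3 peaks within each of the 2 lists and keeping chromosomes 1 to 19. A region was shared when it overlapped a region of the other list by at least 1 bp, and otherwise belonged to 1 list only. There were 17339 such regions, 9534 in the XY list and 7805 in the XX list, of 207961 regions of both marks on all chromosomes in the whole series.

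The study asked how chromatin marks of the supporting cell lineage differ between the sexes before and after sex determination, with ChIP-seq for H3, H3K4me3 and H3K27me3 in 24 samples. All samples came from C57BL/6 x CD1 mouse embryos that carried a fluorescent reporter. Progenitor cells were sorted from XY and XX gonads of SF1-eGFP embryos at E10.5, before the sexes differ in gonad structure. For comparison, Sertoli cells were sorted from XY Sox9-CFP gonads and pregranulosa cells, labelled granulosa, from XX TESM-CFP gonads at E13.5. Each progenitor group had 2 replicates per antibody, made from gonads pooled over embryos, and the deposited list joined both replicates. The SF1 reporter defines the population by *Nr5a1* promoter activity and not by lineage, so cells of more than 1 type could enter the sort. A list holds positions of called H3K27me3 without any level, since every peak has the same score. With 1 pooled list per population, no test compares XY with XX. The 95% exact (Clopper-Pearson) binomial intervals in parentheses cover counting error only.

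H3K27me3 is deposited by Polycomb repressive complex 2, which contains EZH2, EED and SUZ12, and is bound by the CBX subunits of Polycomb repressive complex 1. The mark covers the promoters of silent developmental regulators, most often at islands of CG dinucleotides (CpG islands). Where it lies together with H3K4me3, the mark of active and poised promoters, the promoter is called bivalent. In the bipotential gonad, the genes of both the testis and the ovary pathway are not yet used in a sex-specific way, and regulators of other lineages are silent.

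The depth of the 2 lists differed. The XX list was called from 33185400 tags and the XY list from 6470151, a ratio of 5.13. The caller's threshold was 55 tags per window in the XX list, where 34.2 were expected, and 14 in the XY list, where 5.12 were expected. The threshold therefore stood at 1.61 times the expectation for XX and at 2.74 times for XY. The caller also took fragments to be 182 bp long for XX and 70 bp long for XY. Depth, fragment length, threshold and sex differed together and cannot be told apart. H3K4me3 was called at 64.8% (XY) and 66.7% (XX) of all autosomal protein-coding promoters, from lists whose tag numbers differed by a ratio of 4.85. All 10 genes of a list of early gonad regulators, *Nr5a1* and *Gata4* among them, had it in both populations, as did all 16 genes of a list used by every cell. These counts are the same for XY and XX and do not check which list belongs to which sex.

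To show the DNA behind the shared and the 1-list promoters, the 300 bases before the transcription start site (TSS) of 6 genes are given 5′ to 3′ in the direction of transcription, with every CG in capitals, from mm9 (NCBIM37). *Cdh22* and *Foxf1a* lie in the widest shared loci that hold the TSS of a named protein-coding gene, *Olfr1410* in the widest such XY-only region and *Krt82* in the widest such XX-only region. Predicted genes were passed over, and where a region held several TSSs the one with the most CG was taken. *Foxl2* and *Nr5a1* were added after their values were seen, as an ovary pathway gene and the reporter gene of the sort.
*Cdh22* chr2:165060354-165060653 (minus strand): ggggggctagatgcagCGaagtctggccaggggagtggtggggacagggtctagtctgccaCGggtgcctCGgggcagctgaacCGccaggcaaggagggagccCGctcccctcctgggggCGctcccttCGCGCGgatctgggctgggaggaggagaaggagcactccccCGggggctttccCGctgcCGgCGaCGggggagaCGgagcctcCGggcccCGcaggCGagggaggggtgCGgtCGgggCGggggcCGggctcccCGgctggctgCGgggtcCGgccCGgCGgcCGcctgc
*Foxf1a* chr8:123607986-123608285 (plus strand): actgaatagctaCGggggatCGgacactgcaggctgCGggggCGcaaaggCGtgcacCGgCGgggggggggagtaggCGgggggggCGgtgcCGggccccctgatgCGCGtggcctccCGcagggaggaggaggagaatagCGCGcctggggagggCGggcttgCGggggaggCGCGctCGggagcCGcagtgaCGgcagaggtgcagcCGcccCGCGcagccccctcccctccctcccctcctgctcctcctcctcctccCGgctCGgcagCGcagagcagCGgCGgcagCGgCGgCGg
*Foxl2* chr9:98855726-98856025 (plus strand): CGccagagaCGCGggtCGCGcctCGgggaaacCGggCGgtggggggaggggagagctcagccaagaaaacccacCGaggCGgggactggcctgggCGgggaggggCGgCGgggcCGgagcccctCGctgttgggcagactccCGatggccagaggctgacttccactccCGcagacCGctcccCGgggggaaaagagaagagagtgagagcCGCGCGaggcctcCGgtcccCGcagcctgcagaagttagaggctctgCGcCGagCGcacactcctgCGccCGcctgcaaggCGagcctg
*Nr5a1* chr2:38570063-38570362 (minus strand): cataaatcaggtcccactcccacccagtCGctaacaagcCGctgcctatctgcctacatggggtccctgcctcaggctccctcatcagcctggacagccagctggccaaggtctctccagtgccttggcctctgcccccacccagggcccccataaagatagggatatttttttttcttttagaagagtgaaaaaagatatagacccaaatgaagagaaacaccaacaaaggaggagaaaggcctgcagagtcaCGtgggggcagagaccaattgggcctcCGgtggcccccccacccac
*Olfr1410* chr1:94504116-94504415 (plus strand): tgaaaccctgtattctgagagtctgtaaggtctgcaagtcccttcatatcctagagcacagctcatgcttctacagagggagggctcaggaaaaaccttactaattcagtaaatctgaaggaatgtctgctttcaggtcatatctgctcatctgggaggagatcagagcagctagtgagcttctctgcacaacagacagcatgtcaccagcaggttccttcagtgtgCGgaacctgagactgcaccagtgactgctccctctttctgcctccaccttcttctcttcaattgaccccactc
*Krt82* chr15:101381099-101381398 (minus strand): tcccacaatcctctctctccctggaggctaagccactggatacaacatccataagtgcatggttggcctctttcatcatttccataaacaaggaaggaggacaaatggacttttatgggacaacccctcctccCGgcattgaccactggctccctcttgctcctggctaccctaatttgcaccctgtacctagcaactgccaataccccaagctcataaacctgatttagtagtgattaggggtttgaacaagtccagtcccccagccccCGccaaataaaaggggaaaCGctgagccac

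The number of CG dinucleotides in these 300 bases was 28 at *Cdh22*, 33 at *Foxf1a* and 30 at *Foxl2*, but 4 at *Nr5a1*. It was 1 at *Olfr1410* and 3 at *Krt82*. Over all protein-coding promoters of the autosomes, the median was 14 (quartiles 8 and 23) where both lists had H3K27me3, 9 (4 and 20) where the XY list alone had it, 12 (6 and 20) where the XX list alone had it, and 8 (2 and 19) where neither had it. The printed examples thus all lie outside the quartiles of their classes. Those at *Cdh22*, *Foxf1a* and *Foxl2* lie above them, and those at *Nr5a1*, *Olfr1410* and *Krt82* below.

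Most of the H3K27me3 landscape was common to both populations. Of the XY regions, 7156 (75.1%, 74.2–75.9) overlapped an XX region, and of the XX regions, 7051 (90.3%, 89.7–91.0) overlapped an XY region. The remaining 2378 XY-only and 754 XX-only regions were short. Regions of the XY list covered 89.7 Mb and those of the XX list 82.2 Mb, 3.63% and 3.33% of the autosomes, and shared regions held 85.0% of the XY bases and 94.8% of the XX bases. The shallower list had more regions, and more of them were its own.

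Joined over both lists, the shared regions formed 6889 loci. Of these, 6535 consisted of 1 XY and 1 XX region, 201 joined several XY regions to 1 XX region and 109 joined several XX regions to 1 XY region. The loci spanned 85.0 Mb, of which 69.1 Mb lay under a region of both lists. That common part made up 90.7% of the XY bases and 88.7% of the XX bases at these loci. The width in XX cells divided by that in XY cells had a median of 1 (quartiles 0.948 and 1.20), and the XX side was the wider in 3432 loci (49.8%). The other loci were not split into those of equal width and those wider in XY cells. At these loci the XX regions summed to 77.9 Mb and the XY regions to 76.2 Mb. The median locus was therefore equally wide in both lists, with a slightly larger total in the XX list.

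Width separated shared from 1-list regions. Shared regions had a median width of 7711 bp in the XY list and 8095 bp in the XX list, whereas the median was 5001 bp, a single caller window, in both the XY-only and the XX-only class. A single window made up 73.6% of the XY-only and 71.5% of the XX-only regions, against 22.7% and 17.5% of the shared ones. Among XY regions of 1 window, 48.1% (46.4–49.8) were shared, and this share was 78.8% up to 7.5 kb, 90.7% at 7.5–10 kb, 97.3% at 10–20 kb and 99.8% (99.1–100) from 20 kb. In the XX list, the shares in the same order were 69.7% (67.5–71.8), 90.2%, 96.2%, 99.3% and 100% (99.4–100). Of the 1254 regions of at least 20 kb in both lists, a single XY region lacked a partner. Wider regions meet the rule of 1 bp of overlap more easily, and how much of the climb this makes was not tested.

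**Figure D1:**
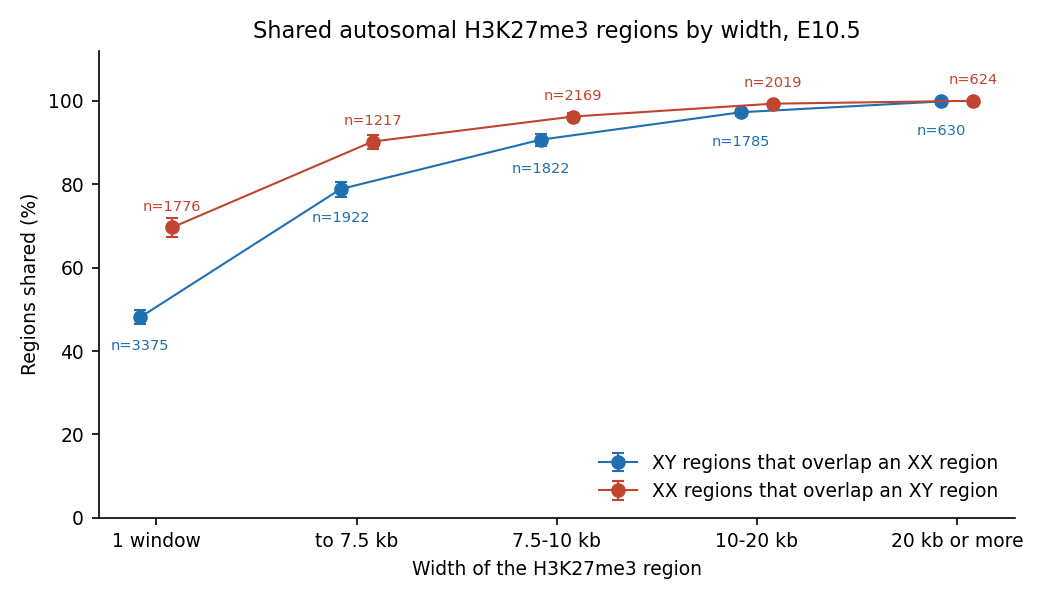
Share of autosomal H3K27me3 regions that overlap a region of the other population's list, on a vertical axis from 0% upward, by width of the region, with exact 95% binomial intervals and the number of regions. Both lines climb with width, from 48.1% (XY) and 69.7% (XX) for single windows to 99.8% and 100% from 20 kb.

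Few calls depended on the exact edge of the overlap rule. Shared regions that overlapped by less than 500 bp numbered 17 in the XY list and 5 in the XX list, and 1-list regions that ended within 500 bp of a region of the other list numbered 20 and 10. Within 5 kb of a region of the other list lay 294 XY-only regions (12.4%) and 133 XX-only regions (17.6%). The median distance to the other list was 41894 bp for XY-only and 29492 bp for XX-only regions. Most 1-list regions were therefore apart from any region of the other list.

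The landscape was spread over all autosomes. The share of XY regions that were shared ran from 71.1% on chromosome 13 to 80.4% on chromosome 12, and that of XX regions from 85.0% on chromosome 16 to 95.7% on chromosome 18. By share of length, H3K27me3 covered chromosome 11 the most, at 6.50% (XY) and 5.95% (XX), and chromosome 3 the least, at 2.35% and 2.14%.

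The classes also lay in different places. Of the shared XY regions, 54.9% (53.7–56.0) reached a protein-coding promoter, taken as TSS ± 2 kb, 17.7% lay in a gene body without reaching one, and 27.4% lay outside genes. Of the XY-only regions, 17.1% (15.6–18.7) reached a promoter and 54.5% lay outside genes. In the XX list, 55.8% (54.7–57.0) of shared and 30.6% (27.4–34.1) of XX-only regions reached a promoter. Shared loci held 0 promoters in 2944 cases, 1 in 3355, 2 in 479 and 3 or more in 111, and their median width in that order was 8771, 9301, 11422 and 20327 bp.

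Base composition mostly followed the same division. The autosomal sequence had 8.51 CG dinucleotides per kb. Shared regions had a median of 17.1 per kb in both lists, XX-only regions 14.6 and XY-only regions 10.8. Away from genes, the medians were 12.997 for shared XY regions and 9.998 for XY-only regions, and 13.15 and 12.20 in the XX list. XY-only regions outside genes had a ratio of observed to chance-frequency CG of 0.191, next to 0.194 for the autosomes as a whole. The ratio at these XY-only regions was thus close to that of the autosomes, while their median of 9.998 CG per kb stood above 8.51. Taken over all regions and away from genes, shared regions were richer in CG. Among regions that reached a promoter, the medians were 20.2 per kb (shared) and 14.6 (XY only) in the XY list. In the XX list they were 19.8 (shared) and 21.2 (XX only), so the order was reversed there.

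Independent lists gave a similar division. H3K4me3 of the same population lay in 77.9% (76.9–78.8) of shared and 642 of 2378 XY-only regions (25.2–28.8%), and in 87.2% (86.4–88.0) of shared and 70.3% (66.9–73.5) of XX-only regions. H3K27me3 of Sertoli cells at E13.5 lay in 81.9% (81.0–82.8) of shared and 43.1% (41.1–45.1) of XY-only regions. H3K27me3 of pregranulosa cells lay in 81.5% (80.6–82.4) of shared and 51.2% (47.6–54.8) of XX-only regions. Neither E13.5 list had H3K27me3 at 11.0% of shared loci, 49.5% of XY-only regions and 29.8% of XX-only regions. All of these intervals were apart between shared and 1-list regions.

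Shared regions were wider, so the shares were also taken at equal width. Among single-window regions alone, H3K4me3 lay in 69.3% (67.0–71.6) of shared and 27.6% (25.5–29.7) of XY-only regions, and in 79.2% (76.9–81.5) of shared and 71.8% (67.8–75.6) of XX-only regions. At this equal width, Sertoli H3K27me3 lay in 66.8% of shared and 39.2% of XY-only regions, and in 63.2% (60.5–65.9) of shared and 58.8% (54.5–63.0) of XX-only regions. Pregranulosa H3K27me3 lay in 59.2% (56.4–61.9) of shared and 48.2% (43.9–52.5) of XX-only regions. At XX-only regions, the intervals for H3K4me3 and pregranulosa H3K27me3 were thus apart from those at shared regions, and those for Sertoli H3K27me3 overlapped.

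**Figure D2:**
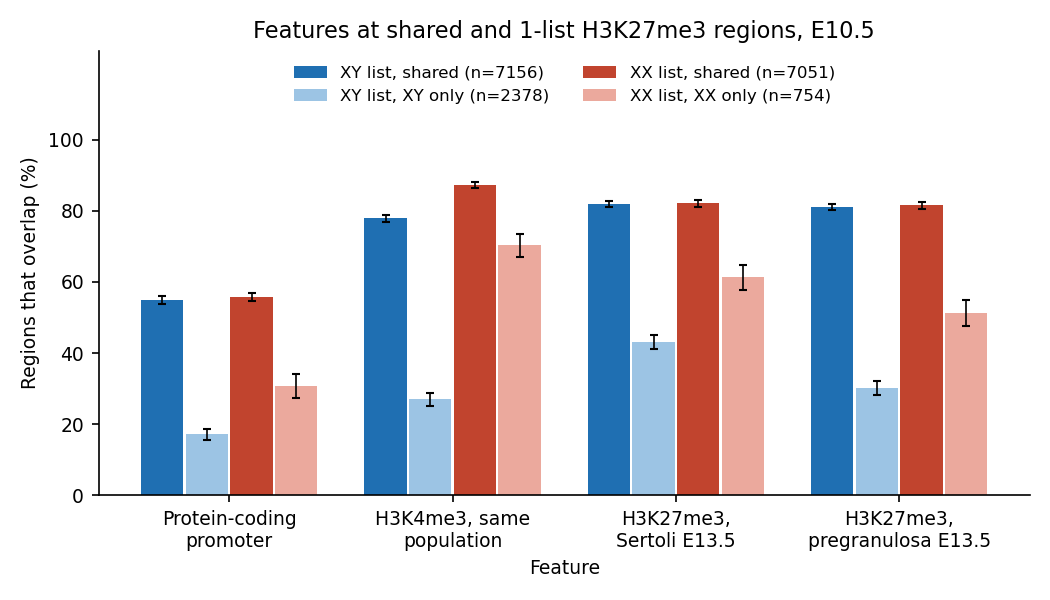
Share of shared and 1-list H3K27me3 regions of each list that overlap a protein-coding promoter, H3K4me3 of the same population, or H3K27me3 at E13.5, with exact 95% binomial intervals. XY-only regions have the lowest bar of the 4 classes in every group, from 17.1% for promoters to 43.1% for Sertoli H3K27me3.

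At promoters, H3K27me3 was called in both populations at 4562 of 21418 autosomal protein-coding genes, which is 21.3% of them. The XY list alone marked 498 promoters (2.33%) and the XX list alone 332 (1.55%), so that the XY list marked 23.6% and the XX list 22.8%. Promoters marked in both lists made up 84.6% (83.6–85.6) of the 5392 marked in either. In 2934 of the 4562, regions of both lists covered the whole window of 4001 bp. The median cover was 2684 bp at promoters marked in the XY list only and 3254 bp at those marked in the XX list only.

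The promoters marked in both populations were often rich in CG and nearly always carried H3K4me3. A promoter counted as CG-rich when the 500 bases on either side of the TSS had at least 50% G+C and an observed to chance-frequency CG ratio of at least 0.6. This held for 56.0% (54.6–57.5) of promoters marked in both lists, 41.8% (37.4–46.2) of those in the XY list only, 50.9% (45.4–56.4) of those in the XX list only and 42.0% (41.2–42.7) of unmarked promoters. H3K4me3 was called in both populations at 90.1% of promoters with H3K27me3 in both, at 68.1% and 81.3% of the XY-only and XX-only promoters and at 55.9% of unmarked ones. In sorted bulk cells, both marks on the same chromosomes and each mark in different cells cannot be told apart. At E13.5, H3K27me3 was called in both Sertoli and pregranulosa cells at 76.7% of promoters marked in both progenitor lists, at 22.1% of XY-only, 36.1% of XX-only and 2.25% of unmarked promoters. Among other gene types, both lists marked 28.6% (26.1–31.2) of 1232 lincRNA promoters and 5.18% (4.52–5.91) of 4055 pseudogene promoters.

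The 10 widest shared loci were each over 100 kb wide. The widest was 185686 bp on chromosome 2 from 164914576 to 165100261, of which 183925 bp were under both lists. It held the promoters of *Cdh22*, a cadherin, and *1700025C18Rik*. The locus at *Foxf1a* (also called *Foxf1*), a forkhead factor of visceral mesoderm, was 172422 bp wide on chromosome 8, in 3 XY regions and 1 XX region. A gap of under 2 kb set it apart from the neighbouring locus of 110422 bp, whose nearest annotated promoter was that of *Irf8*, 75811 bp away. A locus of 170175 bp on chromosome 4 lay inside *Prdm16*, a zinc finger regulator, 27825 bp from its TSS. The loci at *Tbx5*, a T-box factor of heart and forelimb, and *Pax3*, a paired-box factor of muscle and neural crest, were 155572 bp and 137523 bp wide. The other loci among the 10 widest were those at *Rhcg* (132618 bp), at *Nfix*, *Lyl1* and *G430095P16Rik* (119907 bp), and at *Tcf20* (119294 bp). A locus of 134740 bp on chromosome 17 held 7 promoters, those of *H2-T9* and *H2-T3* among them, and near-identical copies of such genes make the placing of reads uncertain. All 10 loci had H3K27me3 in both E13.5 populations, next to 74.96% of all shared loci. Such a call needs only 1 bp of overlap, which loci of this width meet more easily.

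The widest 1-list regions were narrower than these loci. The widest XY-only region, 33051 bp on chromosome 1 from 94497159 to 94530209, spanned the olfactory receptor genes *Olfr1410* and *Olfr12*, a multigene family with similar copies. The next were 18866 bp inside *Slc25a21*, 18798 bp at *Prr5l* and *Commd9*, 18391 bp at 118923 bp from *Vash1* and 15241 bp at 14294 bp from *Gm11110*. The widest XX-only region was 15091 bp, 138312 bp from *Plxnc1*. It was followed by 13606 bp at *Gm22*, 13583 bp inside *Kirrel3*, 13002 bp inside *Txnrd2* and 12927 bp at 286233 bp from *Gm6404*. The XX-only region at *Krt82*, a hair keratin gene, was 9217 bp wide.

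Regulators of the early gonad were themselves under H3K27me3. Both lists marked 8 of the 10 listed genes, next to 21.3% of all promoters. All 8 had H3K4me3 in both populations, as had 90.1% of all promoters marked in both lists. *Nr5a1*, which encodes SF1 and whose reporter defined the sort, lies on chromosome 2 from 38548176 to 38570062 on the minus strand. Its promoter window was wholly covered, by a region of 21496 bp (XY) and 21706 bp (XX), while H3K4me3 covered 2841 bp and 3063 bp of it. These H3K27me3 regions began 2.73 kb (XY) and 2.82 kb (XX) before the TSS and ended 18.8 kb and 18.9 kb after it, in a gene of 21.9 kb.

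The region at *Gata4*, a zinc finger factor required for gonad formation, spanned 48847 bp in the XY list and 73461 bp in the XX list. That at *Lhx9*, a LIM homeobox factor, was 25727 bp and 24414 bp. That at *Emx2*, a homeobox factor of the urogenital ridge, was 28542 bp and 31723 bp. *Zfpm2*, the GATA4 cofactor, had 9018 bp and 8967 bp, and *Tcf21*, a bHLH factor of mesenchyme, 17118 bp and 18533 bp. At *Wt1*, a zinc finger factor of kidney and gonad, the XX region was 18375 bp and the XY region 6844 bp, the widest relative gap among the 8.

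The 2 remaining genes of this list lacked the mark in at least 1 population. *Six4* had 0 bp in both. *Cbx2*, a Polycomb subunit, had a single 5001 bp window in the XX list, which covered 3378 bp of its promoter window, and 0 bp in the XY list. That window lay 9424 bp from the XX region of 64986 bp that covers *Cbx8*. In XY cells a region of 65761 bp covered *Cbx8*. By E13.5, the *Cbx2* promoter window had 3243 bp under H3K27me3 in the Sertoli list and 2665 bp in the pregranulosa list. The *Six4* window had 3747 bp and 4001 bp in the same order. At E13.5, H3K27me3 was absent from the promoters of *Nr5a1*, *Wt1*, *Gata4* and *Zfpm2* in both lists, and the *Lhx9* and *Emx2* promoters had it in the Sertoli list, with 4001 bp and 525 bp, and not in the pregranulosa list.

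Genes of the testis and ovary pathways were marked alike in the progenitors of both sexes. Both lists marked 7 of 9 testis pathway genes and 9 of 10 ovary pathway genes, next to 21.3% of all promoters. Neither list marked any of these genes alone. In the testis pathway, the regions at *Dhh*, a hedgehog ligand of Sertoli cells, were 16702 bp in XY and 14044 bp in XX cells. Those at *Gadd45g*, an activator of the kinase pathway upstream of *Sry*, were 21023 bp and 22656 bp, and those at *Sox8* were 6308 bp and 7508 bp. *Sox9*, the Sertoli cell determinant, had regions of 16626 bp and 15336 bp, *Dmrt1* of 14131 bp and 15434 bp, and *Fgf9* of 12570 bp and 10207 bp. *Cyp26b1*, which degrades retinoic acid, had 25561 bp and 28050 bp and 0 bp of H3K4me3 in both populations, the only one of the 7 without it. *Amh* and *Ptgds*, products of differentiated Sertoli cells, had no H3K27me3.

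In the ovary pathway, the region at *Foxl2*, a forkhead factor of granulosa cells, was 32553 bp in XY and 40185 bp in XX cells. Those at the Iroquois genes *Irx3* and *Irx5* were 25370 bp and 25715 bp, and 39983 bp and 32399 bp. The Wnt pathway genes *Wnt4*, *Rspo1* and *Lef1* had 10139 bp and 11841 bp, 13144 bp and 12920 bp, and 14357 bp and 14944 bp. *Fst*, an inhibitor of activin, had 10285 bp and 7506 bp, and *Bmp2* had 8986 bp and 11581 bp. *Axin2*, a target and inhibitor of Wnt signalling, had the least cover of its promoter window, 1010 bp and 1361 bp. *Runx1* had none.

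**Figure D3:**
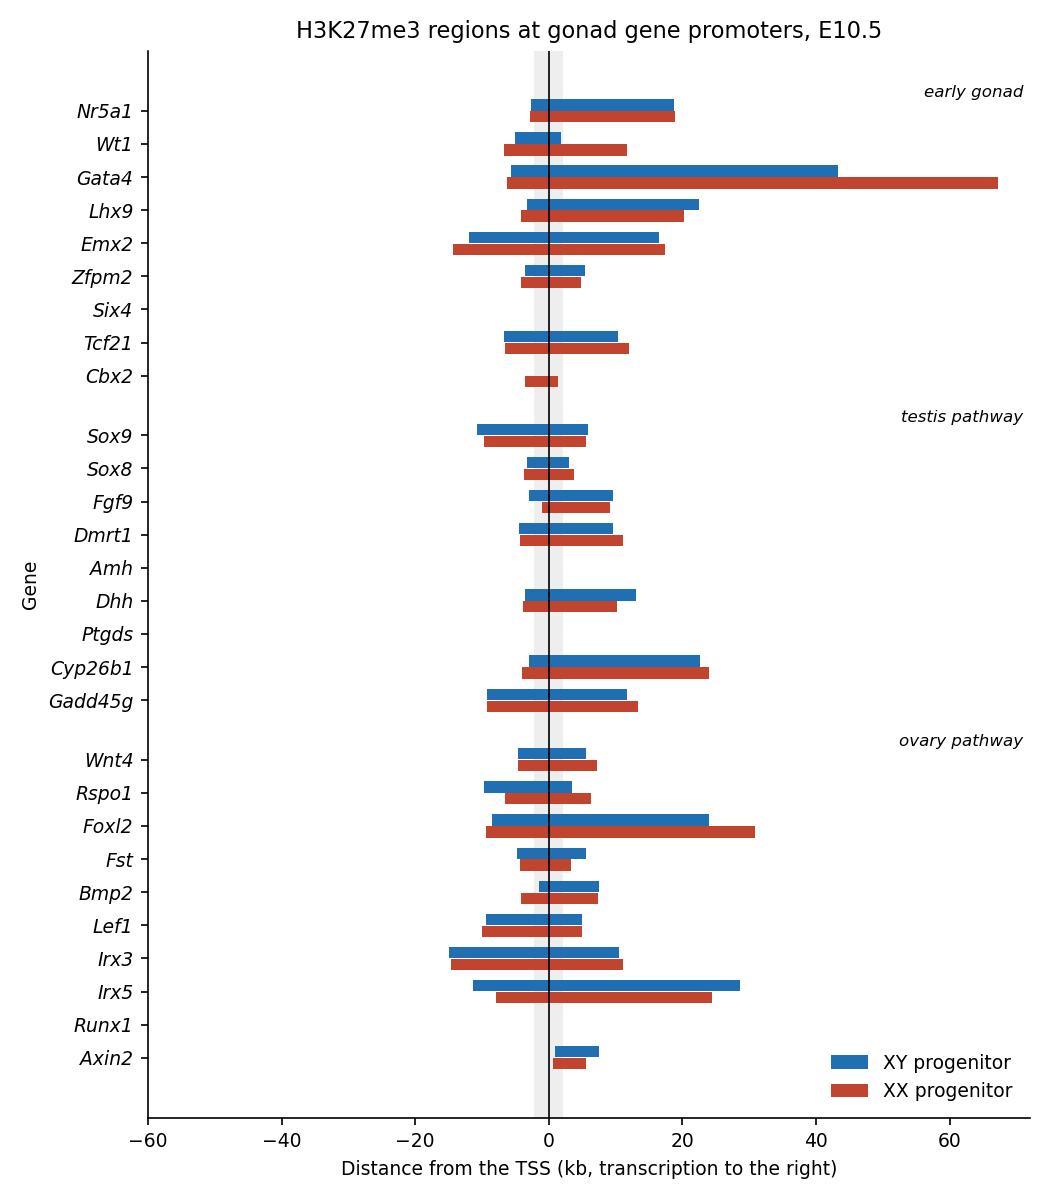
Extent of the H3K27me3 regions that reach the promoter window (grey, TSS ± 2 kb) of 28 early gonad, testis pathway and ovary pathway genes, in kb from the TSS with transcription to the right, for XY and XX progenitor cells. The bars of both populations cover nearly the same stretch at most genes, differ most at *Gata4* and *Wt1*, and are missing in both at *Six4*, *Amh*, *Ptgds* and *Runx1*.

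At E13.5, many of these pathway promoters had H3K27me3 in 1 population only. Over all promoters marked in both progenitor lists, 81.8% had H3K27me3 in the Sertoli list, 84.4% in the pregranulosa list and 76.7% in both. Of the 7 testis pathway promoters marked in both progenitor populations, 6 had H3K27me3 in the pregranulosa list and not in the Sertoli list, and *Cyp26b1* had it in both. Of the 9 ovary pathway promoters, *Wnt4*, *Rspo1*, *Bmp2* and *Axin2* had it in the Sertoli list only, and *Foxl2*, *Fst*, *Lef1*, *Irx3* and *Irx5* in both. No ovary pathway promoter had it in the pregranulosa list only. A call in both needs only 1 bp of the window. In the pregranulosa list, 1284 bp were covered at *Fst* and 3635 bp at *Lef1*, against 4001 bp at each in the Sertoli list. At *Gadd45g*, 627 bp were covered in the pregranulosa list and 0 bp in the Sertoli list. The paper reports that pregranulosa cells lose the mark at the *Foxl2* TSS and gene body and at the *Lef1* TSS. Such a loss can be hidden in a window of this width.

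Regulators of other lineages were mostly marked in both populations. In 7 lists of developmental transcription factors with 185 autosomal genes, both progenitor lists marked 146 promoters (78.9%), next to 21.3% of all promoters. The XY list alone marked 3 and the XX list alone 0. Of the 146, 131 also had H3K4me3 in both populations, near the 90.1% over all promoters marked in both progenitor lists. H3K27me3 lay in both E13.5 populations at 137 of the 146 (93.8%), next to 76.7% of all promoters marked in both progenitor lists. The lists hold classes of genes known as Polycomb targets and were chosen with results of these data known, so their counts describe them and are not independent evidence.

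All 32 Nkx, LIM and Dlx homeobox genes were marked in both lists, with regions of 64761 bp (XY) and 63661 bp (XX) at *Nkx2-3* and of 54808 bp and 54405 bp at *Lhx2*. *Dlx5* and *Dlx6* shared a region of 47494 bp and 51045 bp. Of the 21 genes listed with the Pax and Iroquois factors 19 were marked, with regions of 86935 bp and 84783 bp at *Pax7* and 59669 bp and 55853 bp at *Pax2*. Among the proneural and oligodendrocyte bHLH factors 15 of 16 were marked, with 96370 bp and 98558 bp at *Olig2*. At *Neurog1* the region was 63735 bp in XY and 25656 bp in XX cells. Of the T-box and Gata factors 17 of 21 were marked, with 67878 bp and 80650 bp at *Tbx4*, a hindlimb factor.

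Forkhead and Sox factors were marked in part. Both lists marked 26 of 39 forkhead genes, with regions of 40151 bp and 41719 bp at *Foxa2*, an endoderm factor. *Foxo3* was marked by a single window in the XY list only, and its promoter had 0 bp in both E13.5 lists. Both lists marked 12 of 17 Sox genes, with 42775 bp and 42186 bp at *Sox2*, a factor of neural and pluripotent cells. *Sox4*, *Sox11*, *Sox12*, *Sox13* and *Sox15* had no H3K27me3 in either list.

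The *Hox* clusters were marked in part, by paralog group. *Hox* genes of groups 1 to 13 lie in order along the 4 clusters and are used along the body axis in that order. Both progenitor lists marked all 21 genes of groups 7 to 13. Of the 13 genes of groups 3 to 6, both lists marked *Hoxc6* and neither list marked the other 12. In groups 1 and 2, both lists marked *Hoxb1* and *Hoxd1*, and the XY list alone marked *Hoxa2*, over 4001 bp, and *Hoxb2*, over 729 bp. Around *Hoxc10* to *Hoxc13* the region was 107520 bp wide in XY and 107963 bp in XX cells.

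Some marked promoters beside the unmarked genes were covered in part in at least 1 list. At *Hoxa7*, the XY list covered 1655 bp of the window and the XX list 4001 bp. The same pair of values was 1520 bp and 3447 bp at *Hoxb7*, 953 bp and 1820 bp at *Hoxd8*, and 4001 bp and 3611 bp at *Hoxc6*. Over all promoters marked in neither progenitor list, 6.63% had H3K27me3 in the Sertoli list and 3.71% in the pregranulosa list. At E13.5, all 12 of the unmarked *Hox* promoters had H3K27me3 in the Sertoli list and 9 had it in the pregranulosa list. *Hoxc4*, *Hoxc5* and *Hoxd3* were the 3 with 0 bp there.

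**Figure D4:**
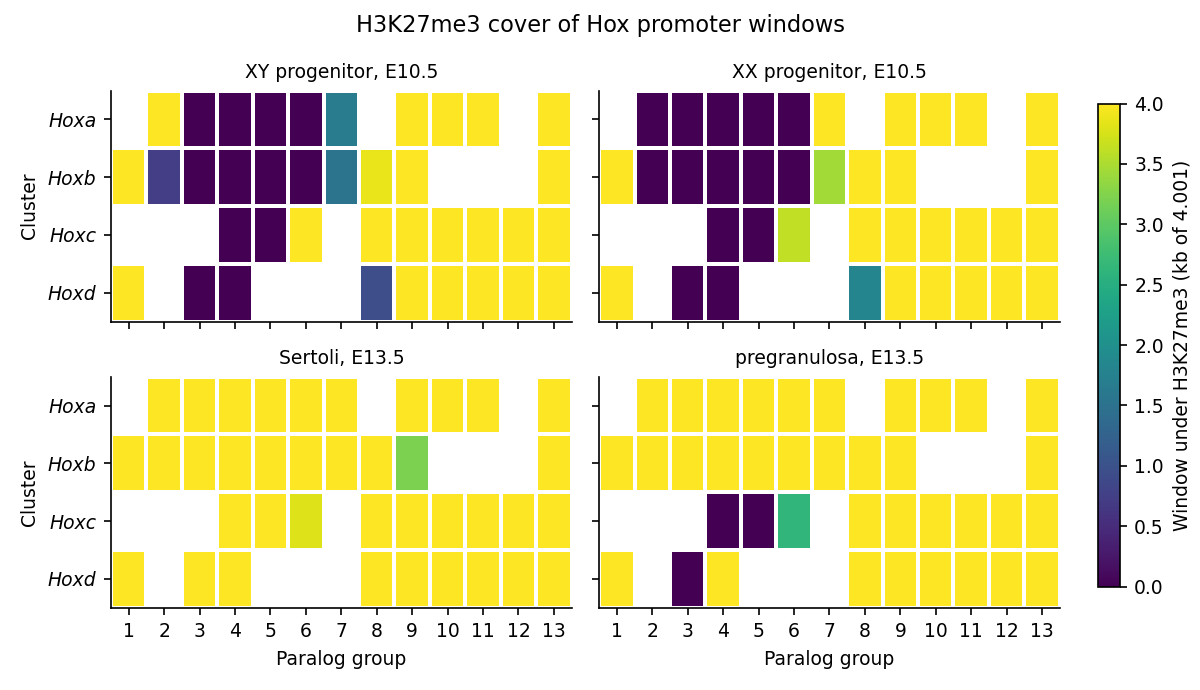
Length of each *Hox* promoter window (4.001 kb, TSS ± 2 kb) under H3K27me3, from 0 kb (dark) to 4.001 kb (yellow), by cluster (rows) and paralog group (columns) in the 4 populations, with white where no gene exists or is shown. Groups 3 to 6 are dark in both progenitor populations except *Hoxc6*, and yellow or nearly so in Sertoli cells.

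Most signalling ligand genes were marked in both populations as well. Both lists marked 43 of 55 ligand genes (78.2%), next to 21.3% of all promoters. The XY list alone marked *Fgf1* and *Bmp4*, and the XX list alone 0. Of the Wnt ligands, 18 of 19 were marked in both and *Wnt8b* in neither. *Wnt6* and *Wnt10a* lay in 1 region of 54071 bp in XY and 54021 bp in XX cells, and at E13.5 the *Wnt10a* window was covered and the *Wnt6* window had 0 bp in both populations. *Wnt1* and *Wnt10b* shared a region of 49820 bp and 50865 bp. Of the Fgf ligands 13 of 20 were marked, with 22628 bp and 24734 bp at *Fgf8*, and of the Bmp and hedgehog ligands 12 of 16, with 34025 bp and 36271 bp at *Ihh*. *Bmp4* had a single window in the XY list, which covered 2051 bp of its promoter window, and was wholly covered in both E13.5 lists.

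Cell cycle inhibitors and Polycomb genes were marked in part. Both lists marked 5 of 7 cyclin-dependent kinase inhibitors. *Cdkn2a* and *Cdkn2b* lay in 1 region of 56188 bp in XY and 55561 bp in XX cells, and *Cdkn2c* had 20680 bp and 20726 bp. *Cdkn1b* had 7614 bp in the XX list alone and 0 bp at E13.5. Of the 29 Polycomb subunit genes, both lists marked 8, which is 27.6% and near the 21.3% of all promoters. Among them were *Bmi1*, with regions of 46609 bp and 41390 bp, and *Cbx8*, *Pcgf1*, *Pcgf3*, *Phc2*, *Phf19* and *Rybp*. The core PRC2 genes *Ezh2*, *Eed* and *Suz12* had none.

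Markers of other cell types that lie near the gonad or could enter the sort were also counted. Both lists marked 7 of 8 nephric, 7 of 8 skeletal muscle, 8 of 10 neural and neural crest, 6 of 10 gut and liver, 8 of 12 germ cell and pluripotency, and 6 of 14 endothelial and blood genes. Over these 6 lists, 42 of 62 genes (67.7%) were marked in both, next to 21.3% of all promoters. Of the 42, 39 (92.9%) had H3K27me3 in both E13.5 populations, next to 76.7% of all promoters marked in both progenitor lists. Examples were *Lhx1* (24034 bp in XY, 24843 bp in XX) of the nephric duct, *Myod1* (10894 bp and 15748 bp) of muscle, and *Tcfap2a* (56409 bp and 52332 bp) and *Hand2* (49663 bp and 52559 bp) of the neural crest. At *Cdx2*, a gut factor, 1 XY region of 62098 bp also covered a neighbouring listed promoter. In XX cells, separate regions of 35507 bp at *Cdx2* and 26289 bp at the neighbour lay there. The region at *Klf1*, a factor of red blood cells, was 58966 bp and 58818 bp, and its promoter had 0 bp in both E13.5 populations. *Sfpi1*, of the myeloid lineage, had 298 bp in the XX list alone. The endothelial genes *Kdr*, *Flt1* and *Cd34* were marked in both lists, with regions of 11889 bp and 12797 bp, 27004 bp and 25515 bp, and 6293 bp and 6254 bp. The endothelial genes *Pecam1*, *Cdh5*, *Tek*, *Tie1* and *Emcn* and the germ cell genes *Ddx4*, *Dazl*, *Sycp3* and *Dnd1* had no H3K27me3 in either list. The XY and XX lists had H3K4me3 at 5 and 7 of the 14 endothelial and blood promoters, and at 6 and 9 of the 12 germ cell and pluripotency promoters, next to 64.8% and 66.7% of all promoters and at the tag ratio of 4.85 given above. What part such cells had in the lists was not tested.

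Genes used by every cell were not marked in both lists. Both lists marked 0 of the 16, next to 21.3% of all promoters. The limit of 3 counts, an approximation and not an exact interval, allows a share of up to 18.8%, close to 21.3%. *B2m* had a single window in the XY list, over 3560 bp of its promoter window, and *Actb* a single window in the XX list, over 1144 bp. Neither gene had H3K27me3 at E13.5.

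**Figure D5:**
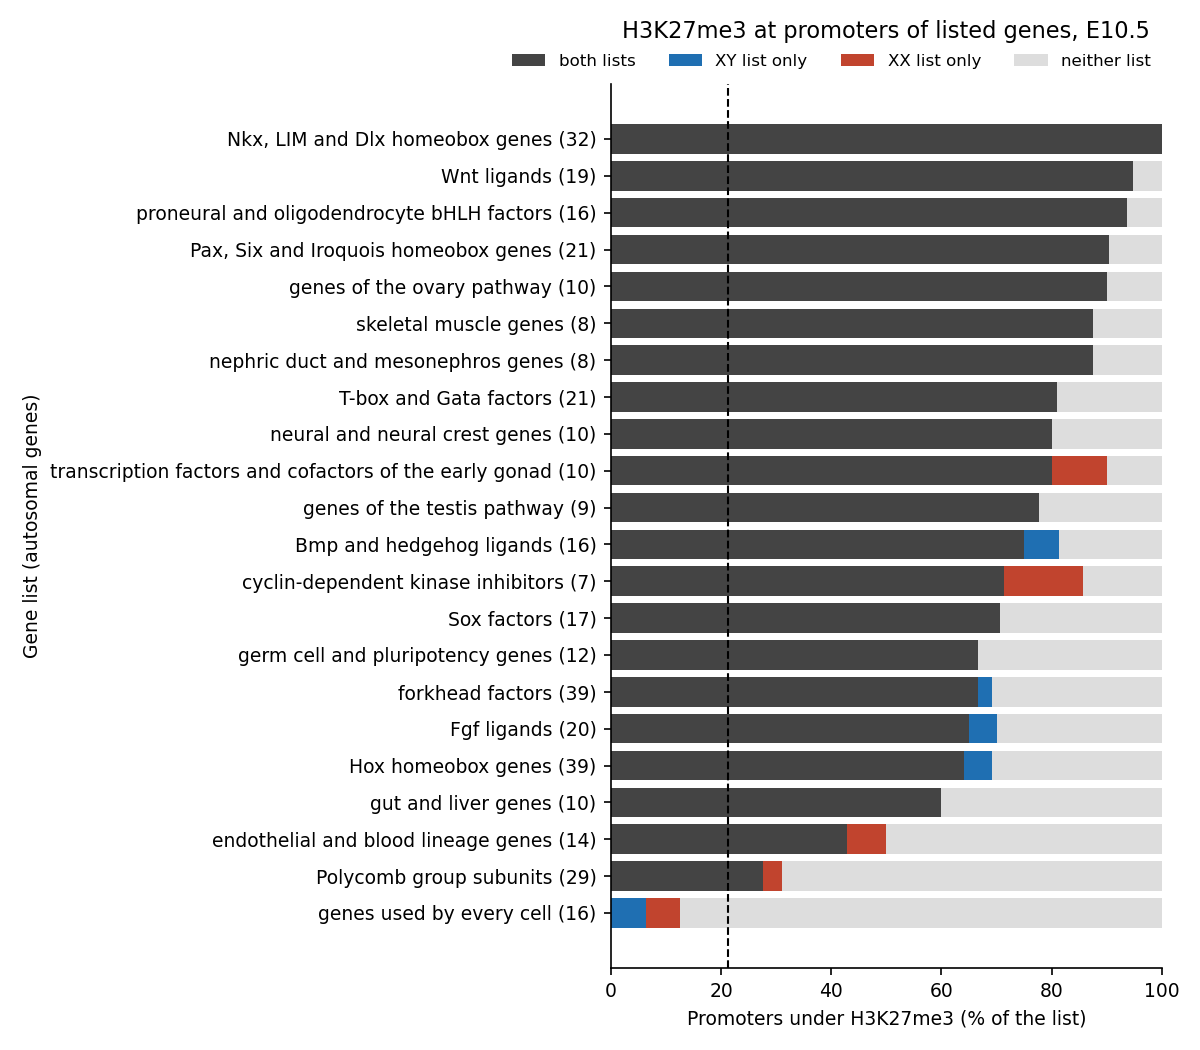
Share of the autosomal promoters of 22 gene lists under H3K27me3 in both progenitor lists, in the XY or the XX list only, or in neither, with the number of genes in parentheses and a dashed line at 21.3%, the share of all protein-coding promoters marked in both. The both-lists bar reaches 100% for Nkx, LIM and Dlx genes and 0% for genes used by every cell, and 1-list bars are short throughout.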

How the data were processed

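The deposited lists of H3K27me3 in XY and XX progenitor cells were compared, with those of H3K4me3 in both and of H3K27me3 in Sertoli and pregranulosa cells as independent readouts. The 24 samples fell into 12 groups of 2 replicates by their labels. Per the methods, chromatin was digested with MNase and mixed with Drosophila carrier chromatin. The authors trimmed reads (Trim Galore), and aligned them to mm9 (Bowtie, SAMtools). Per the file headers, HOMER called the deposited peaks on tag directories that join both replicates, with H3 as input, whereas the methods describe calls on single replicates. Tool versions are not given in the sources used here. Per the file headers, H3K27me3 peaks used windows of 5000 bp, at least 4 times input with a Poisson p-value of 0.0001, and input removed 0 putative peaks from either progenitor list. The pregranulosa list has no header, so its depth is unknown. The deposited score column is 1 constant value and was not used as a level. Only start and end were used, and positions are printed counting from 1.

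Overlapping peaks were joined, and regions were classed by 1 bp of overlap. Counts and shares are given with 95% exact intervals (Clopper-Pearson), for counting error alone. TSSs were the 5′ ends of genes in GENCODE M1 on NCBIM37, the build of the lists. Symbols absent there were matched through older symbols in a RefSeq table, and *Foxl1* and *Sox1* were left unmatched. The members, the 22 gene lists and the rules were chosen with earlier results of these data known. The rule named every early gonad, testis and ovary pathway gene, up to 4 genes with the widest shared regions and every 1-list gene of each other list, and genes at the 10 widest shared and 5 widest 1-list regions. Other genes named to complete a count were chosen after their values were seen. A few genes are not reported here. No test was run between populations, since each has 1 pooled list. Scripts were tested on simulated regions and against bedtools 2.31.1. Python 3.11.15, NumPy 2.4.6, SciPy 1.17.1 and matplotlib 3.10.9 were used.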

Additional observations from a re-analysis of the deposited data

How the results depend on the processing

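No paired analysis was possible because each deposited list joins both replicates, and for the same reason no fit without a replicate was made. Of 41 values recomputed under the alternatives, 28 stayed within the counting interval of the main value, or within 1.5 times the main count, and 13 did not.

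The share of XY regions shared, 75.1%, became 73.6% when 50% of the region had to be covered, 73.7% when each list kept its widest 75%, 80.9% with equal numbers of widest regions, 84.0% with regions of more than 1 listed peak and 90.1% over peaks as listed. The share of XX regions shared, 90.3%, became 89.3%, 88.7%, 80.2%, 85.2% and 96.8% in the same order, and 91.0% with peaks joined within 5 kb. With equal numbers of regions, the XY and XX shares thus stood at 80.9% and 80.2%, which follows from the construction when nearly all regions pair 1 to 1. The Jaccard index of covered bases, 0.672, became 0.692 with regions of more than 1 listed peak, and the overlap rules leave it as it is by definition. H3K4me3 at XY-only regions went from 642 to 592 of 2378 regions (24.9%) when 500 bp of overlap were required. Promoters marked in the XY list only numbered 498 and ranged from 364 (TSS inside a region) to 612 (widest 75% of regions), and those in the XX list only numbered 332 and became 360 and 346, so the order of the 2 counts held in each, with a margin of 4 promoters when the TSS had to lie inside a region. Over every gene of the annotation, the XY list alone marked 705 promoters and the XX list alone 468. No list gives a level, and the part of depth in the 1-list calls was not tested.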

Other observations

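Promoters of other gene types were marked in both progenitor lists at different shares. Both lists marked 352 of 1232 lincRNA promoters (28.6%), 338 of 2437 processed transcripts (13.9%), 146 of 1468 miRNA genes (9.95%, 8.46–11.6) and 28 of 1458 snoRNA genes (1.92%, 1.28–2.76), and 0 of 355 immunoglobulin variable genes. The rRNA genes reached 62 of 307 (20.2%, 15.8–25.1), and their repeated copies make the placing of reads uncertain.

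Of the 4562 protein-coding promoters marked in both progenitor lists, 479 had no H3K27me3 in either E13.5 list. Of the 16026 unmarked at E10.5, 6.63% had it in Sertoli cells and 3.71% in pregranulosa cells.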
